A study of Mus musculus with 5 samples.

Results

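The 10 genes described here encode ETS transcription factors that act in blood: Erg, Fli1, Ets1, Ets2, Elf1, Etv6, Spi1, Spib, Gabpa and Elk3. They were taken as a named list, and each was looked up by its symbol among 21887 protein-coding genes of the NCBI RefSeq table of mouse assembly GRCm38.p6. All 10 were found there. The data were 1 list of 22948 peaks of H3K27ac, a histone acetylation found at promoters and enhancers in use. It was made by ChIPmentation, in which chromatin is immunoprecipitated and the Tn5 transposase adds the sequencing adapters. The cells were CD45.2+ and lineage-negative with Sca1 and Kit on the surface, were sorted from mouse bone marrow and are named HSC/MPP (stem cells and multipotent progenitors) in the labels. All 4 H3K27ac libraries and the 1 input library carried the genotype Mll3/4 deleted, so the list holds no control genotype. The labels give neither the age of the mice nor the Cre or agent behind the deletion. The list covers the 4 libraries together and gives no value of a single one, so no value below has a replicate error or a test; its name describes an overlap set over input, and the steps behind it are not given in the sources used here. Read depth is unknown.

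ETS factors share a winged-helix DNA-binding domain, the ETS domain, that recognises a GGAA core. Erg and Fli1 are close relatives that help maintain blood stem cells, and Spi1 (PU.1) sets myeloid and B-cell fate according to its dose. Genes of such factors are often switched by enhancers inside the gene or far from it, while genes used by every cell tend to be read from 1 promoter rich in CpG. H3K27ac can mark either.

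A peak was placed at an end of a gene when it overlapped the 1 kb on either side of either end, and in the body when it overlapped the gene but neither of these windows. A peak was called flanking when it lay outside both within 100 kb of the gene. The signal value is the authors' enrichment of H3K27ac over background for each peak, and it serves here only to describe and rank peaks within the list. Its median over the list was 3.27, with 4.25 for peaks whose summit lay within 1 kb of a protein-coding gene end and 2.97 for the other peaks, called distal. Of the list, 21.2% had a q-value above 0.05.

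Marker genes were looked up for the sorted cells and for blood lineages that the lineage-negative gate is meant to remove. Of 9 stem and progenitor markers, 5 had an end peak, against 36.2% of all protein-coding genes, among them Kit with 5.66 and Ptprc, the CD45 gene, with 10.8. Ly6a, the Sca1 gene, Procr and Hlf had no end or body peak, and Mecom had 1 body peak, of 2.57. All 7 B-lineage markers had an end peak, from 4.40 at Cd79a to 13.6 at Blnk, against 0 of 5 granulocyte and monocyte, 0 of 4 T-lineage and 0 of 3 erythroid markers. Body peaks were found in 5 of the 9 stem and progenitor markers, with 14 in Kit, and in 3 of the 7 B-lineage markers, with 53 in Ebf1, 30 in Pax5 and 8 in Blnk. The background for body peaks was 16.6%. The T-lineage gene Lck had 1, and the granulocyte, monocyte and erythroid markers had 0. Ets1 and Spi1 are also used in B-lineage cells. Whether such cells account for peaks at the ETS genes was not tested, and fewer cells with a peak cannot be told apart from a weaker peak per cell.

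The 10 genes fell into 4 arrangements. Erg, Fli1 and Ets1 had many peaks in the body and none at an end. Elf1, Etv6, Spi1 and Elk3 had peaks at an end and in the body. Gabpa had a single peak, at an end. Spib and Ets2 had no peak at an end or in the body. Peaks at an end were thus found for 5 of the 10 genes, against 36.2% of all protein-coding genes, and body peaks for 7, against 16.6%. Flanking peaks were found for 7, against a background of 72.2%, so their share was close to that of all genes. For Fli1, Ets1, Spi1 and Elk3, some flanking peaks had an end of that gene as their nearest protein-coding gene end. This was 4 of the 10, against 11%. Spi1 counted through 1 peak, of 2.45 with a q-value above 0.05, and Fli1 through 1 peak of 2.81. The peaks behind Fli1 and Ets1 lie between these 2 genes. The 11% was not matched for gene length or for the distance between genes. The 3 genes with body peaks and no end peak can be set beside 7.58% of all protein-coding genes, the 4 with both beside 9.03%, and the 2 with neither beside 56.2%. Erg and Fli1 had been named as genes with peaks only away from their ends when the list was set. These shares were not taken at matched length. Body peaks go with length: they were found in 44.8% of the 4378 longest genes, where end peaks stood at 38.8% and flanking peaks at 72.9%. Erg, Fli1, Ets1, Elf1, Etv6 and Elk3 belong to these longest genes, and each of them had body peaks.

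Stricter lists left most of this in place. With peaks above a q-value of 0.05 left out, the list gave the same 5, 7 and 7 genes with end, body and flanking peaks, beside 34.4%, 14.2% and 70% of all protein-coding genes. At −log10 q of 5 or more, 5 had an end peak (background 24%), 6 a body peak (7.34%) and 5 a flanking peak (57.4%), Elk3 losing its body peaks. From a signal value of 4 upward, 4 had an end peak (23.2%), 6 a body peak (6.85%) and 5 a flanking peak (56.1%), and it was Elk3 again that lost its end and body peaks.

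**Figure D1:**
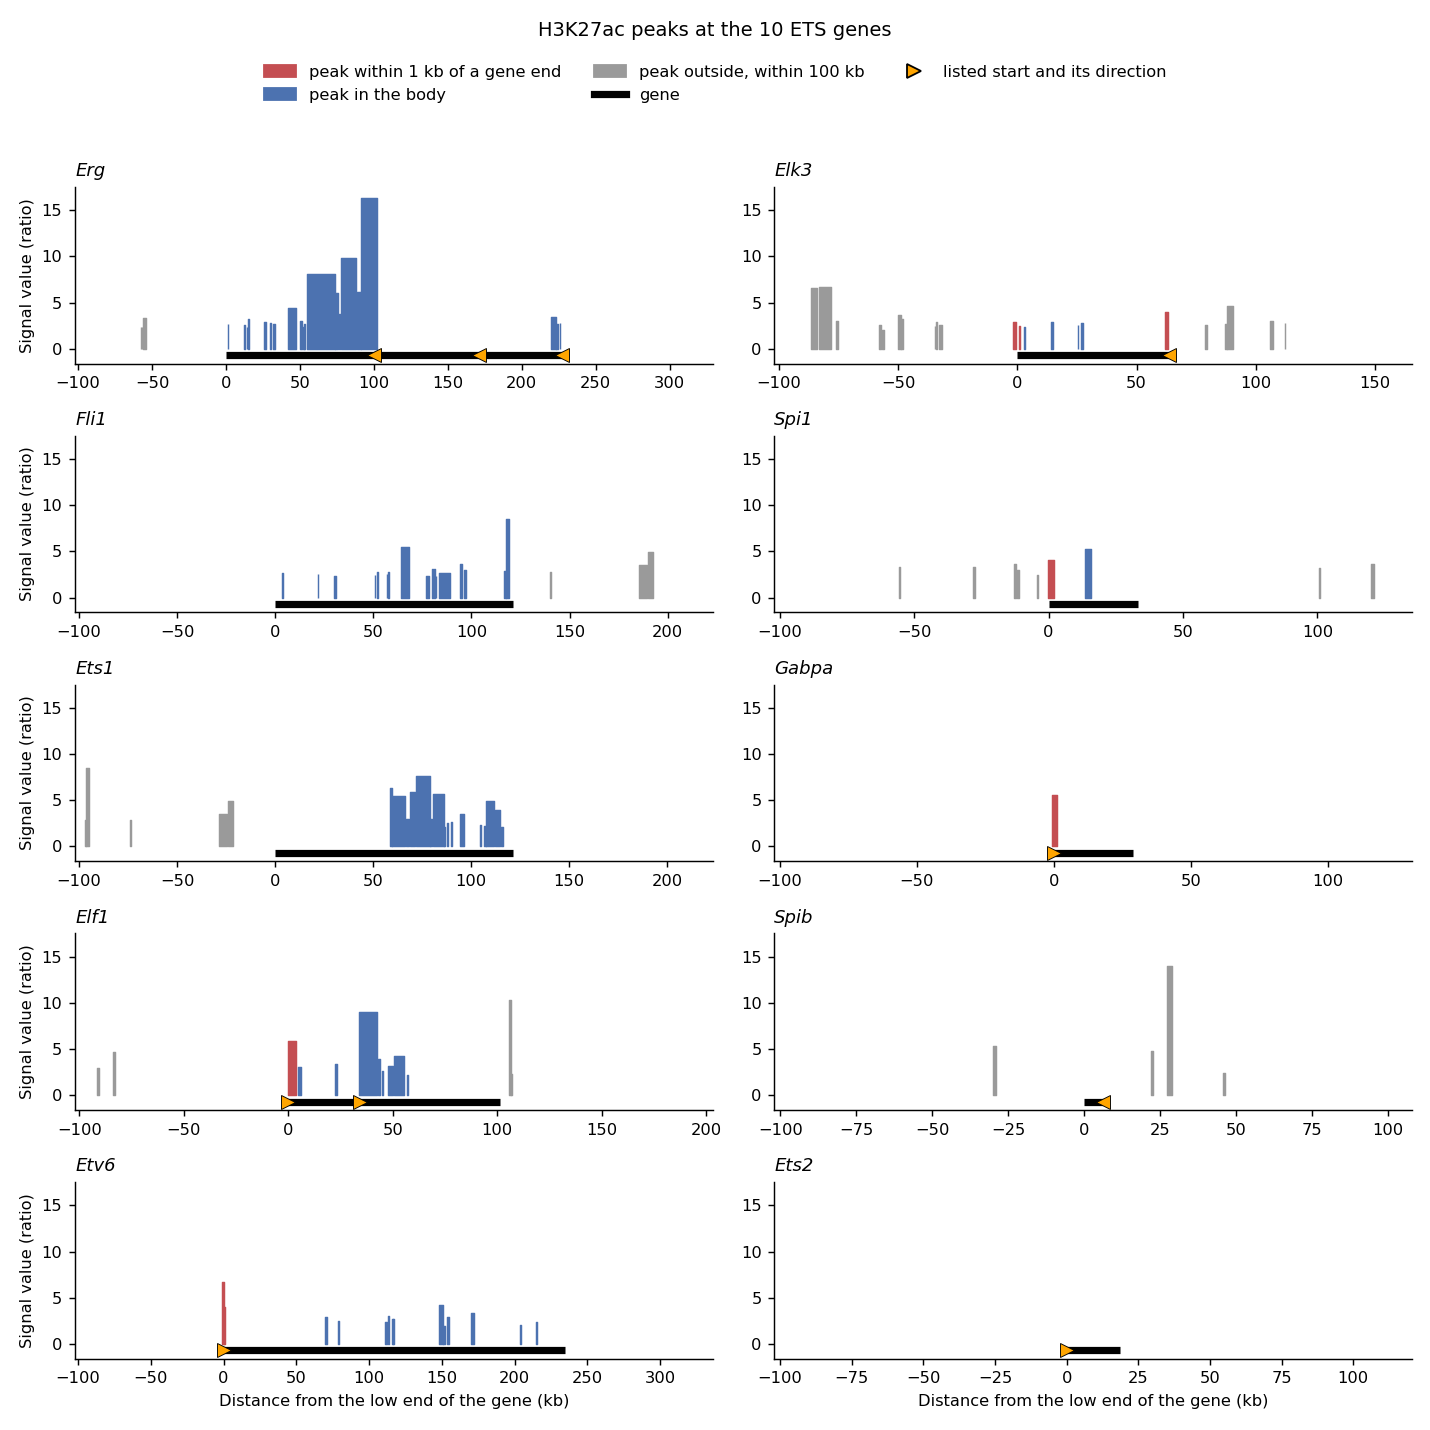
Peaks along each of the 10 genes, with the distance from the low-coordinate end of the gene in kb on the x axis and the authors' signal value (a ratio) on the y axis; each bar is 1 peak, drawn over its width. The body of Erg carries the highest bar, 16.4, which covers an internal start, whereas the panel of Ets2 is empty over 100 kb on either side.

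The 1 kb window decides part of this grouping. Among the genes with an end peak, the peak nearest to an end overlapped that end in Etv6, Spi1, Elf1 and Gabpa and lay 466 bp away in Elk3. Among the others, the distance was 1058 bp in Erg, 1942 bp in Fli1, 5229 bp in Ets1, 16003 bp in Spib and 117067 bp in Ets2. Each distance is from whichever end was nearer, and in Erg and Elk3 this was the end of transcription. From the listed start at their other end, the nearest peak began 1.25 kb away in Erg and 0.55 kb away in Elk3. With a window of 2.5 kb, Erg and Fli1 therefore also counted as having an end peak, which made 7 of 10, against 39.3% of all protein-coding genes. When the summit of the peak had to lie in the 1 kb window, Elf1 and Spi1 dropped out and 3 of 10 were left, against 33.3%.

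Erg, a factor required for stem cell maintenance, lies on chr16:95359169-95586600 and is 227 kb long. It had 20 body peaks, 15 of them at a q-value of 0.05 or lower, and 42 protein-coding genes, Erg included, had at least as many. They covered 64.4 kb, or 28.3% of the gene. They stood in 2 groups: 17 peaks lay within the first 102.1 kb from the low-coordinate end and 3 lay close to the high-coordinate end, with 117 kb between them that held no peak. RefSeq lists 3 starts for Erg, all on the minus strand, so transcription runs from the high end to the low end. The start at the high end and the next one, 171 kb from the low end, had no peak within 1 kb. The third, 100.2 kb from the low end, lay within the strongest peak of the gene.

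That peak, chr16:95450506-95461245, reached a signal value of 16.4, the 24th highest of the 22948 peaks, and its −log10 q was 81.7. It was 10740 bp wide. Further along the transcribed strand lay chr16:95436620-95447261, with a signal value of 9.77, and chr16:95413808-95432757, with 8.14 and a width of 18950 bp. The last was the 4th widest peak of the list, which holds 27 peaks over 10 kb, 3 of them in Erg. The other body peaks of Erg had signal values down to 2.32, and the median of all 20 was 2.95, near the 2.97 of distal peaks. The 3 peaks close to the high end had signal values of 3.44, 2.66 and 2.74. Its 3 flanking peaks, which lay nearest to Kcnj15, reached 3.36 at chr16:95303053-95305008. Erg thus held a few very strong and broad peaks among many of ordinary strength.

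The RefSeq sequences at these 3 starts (assembly GRCm38.p6, minus strand, 250 bases before to 50 after the start) are shown to compare the start inside the strongest peak with those that had no peak within 1 kb. The GGAA core of ETS sites is in capitals, read as GGAA on the printed strand or as TTCC where it lies on the other.
Erg, start at the high end, chr16:95586544-95586843: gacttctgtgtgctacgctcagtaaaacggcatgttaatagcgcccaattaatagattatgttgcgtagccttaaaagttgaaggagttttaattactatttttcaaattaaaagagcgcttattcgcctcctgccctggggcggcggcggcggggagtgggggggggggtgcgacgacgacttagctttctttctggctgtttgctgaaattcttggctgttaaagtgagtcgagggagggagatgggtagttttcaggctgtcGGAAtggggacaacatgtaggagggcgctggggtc
Erg, second start, chr16:95530316-95530615: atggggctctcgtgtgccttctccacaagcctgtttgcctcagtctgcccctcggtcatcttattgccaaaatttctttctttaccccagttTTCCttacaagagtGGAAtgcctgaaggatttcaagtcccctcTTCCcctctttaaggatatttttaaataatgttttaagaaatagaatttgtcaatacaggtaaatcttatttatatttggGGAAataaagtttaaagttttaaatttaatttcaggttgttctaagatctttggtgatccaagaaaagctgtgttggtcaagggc
Erg, the third start, inside the strongest peak, chr16:95459299-95459598: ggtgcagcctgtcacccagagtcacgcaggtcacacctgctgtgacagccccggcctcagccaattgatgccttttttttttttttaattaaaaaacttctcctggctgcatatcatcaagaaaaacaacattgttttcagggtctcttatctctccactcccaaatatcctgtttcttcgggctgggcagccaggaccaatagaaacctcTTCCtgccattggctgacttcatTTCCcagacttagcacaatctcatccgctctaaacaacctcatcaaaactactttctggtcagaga
The third start had 4 CpG dinucleotides in its 300 bases, the second 2 and the one at the high end 16. Over all 21263 listed starts of protein-coding genes, the median was 22 CpG for those with a peak within 1 kb and 6 for those without. The start of Erg with the strongest peak was thus poor in CpG, while the CpG-richer one had no peak within 1 kb. GGAA on either strand was found 2 times at the third start, 4 times at the second and once at the high end. These letters are common, being present in 95.7% of all listed starts. GATAA, the letters that GATA factors bind, was found once at the third start and at neither of the other starts, and it occurs on either strand in 22.5% of all listed starts.

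**Figure D2:**
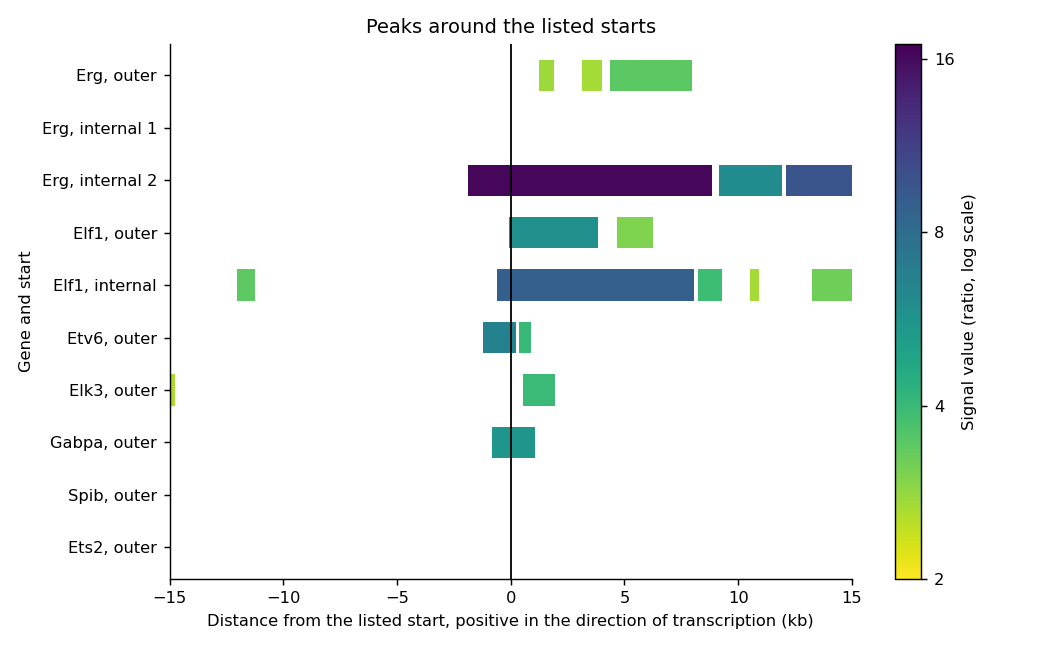
Peaks around the 10 starts that RefSeq lists for 7 of the genes, with the distance from the start in kb on the x axis, positive in the direction of transcription; each row is 1 start and the colour gives the signal value on a log scale. The peak over the third start of Erg, marked internal 2, reaches from -1.90 to 8.84 kb, and no peak lies within 15 kb of the first internal Erg start.

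Of all listed starts, 37.4% had a peak within 1 kb. The share was 38.8% for starts near a gene end and 31.6% for internal starts, those over 1 kb from both ends. Among the 2159 protein-coding genes with an internal start and no end peak, 516 (23.9%) had a peak within 1 kb of an internal start, as Erg did. Counted by any listed start, Erg joins Elf1, Etv6, Gabpa and Elk3, which makes 5 of the 7 genes with a listed start. In all protein-coding genes with a listed start the share was 38%. Fli1, Ets1 and Spi1 were not among the starts used here, so whether any of their body peaks covers a start is unknown.

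Fli1, the closest relative of Erg, which also drives megakaryocyte genes, lies on chr9:32422204-32543432 and is 121 kb long. It had 17 body peaks, 10 of them at a q-value of 0.05 or lower, or 14.0 body peaks per 100 kb. Of the 2429 protein-coding genes of at least 100 kb, 14 (Fli1 included) had as many per 100 kb. The strongest, chr9:32539937-32541490, reached 8.48 in signal value with a −log10 q of 26.3, and its summit lay 2.91 kb inside the high end. The second, chr9:32486433-32490126, had 5.51 and lay 65.8 kb from the low end. The other 15 had signal values from 2.29 to 3.67. Counting all 17, the peaks of Fli1 were spread over most of its length and covered 16.7% of it. The longest stretch without a peak was then 19.9 kb. At a q-value of 0.05 or lower, the first peak began 51.6 kb from the low end. At −log10 q of 5 or more, 2 body peaks were left.

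Ets1, a factor of lymphoid cells, lies next to Fli1 on chr9:32636241-32757820, with 92.8 kb and no protein-coding gene between them. It had 16 body peaks, 11 of them at a q-value of 0.05 or lower. All lay beyond the first 58.8 kb from the low end, in one run of 57.5 kb, and the peaks themselves covered 31.1% of the gene. The strongest, chr9:32708101-32715206, had a signal value of 7.62, and 4 more were above 5: chr9:32695067-32695893 with 6.33, chr9:32705273-32707859 with 5.88, chr9:32716902-32722384 with 5.69 and chr9:32696096-32702786 with 5.45. These 5 lay between 58.8 and 86.1 kb from the low end, with 2 peaks of 3.01 and 3.00 among them, and neither end of the gene carried a peak. No start of Ets1 was among those used here, so whether this run covers an internal start is unknown.

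The 3 peaks between Fli1 and Ets1 are within 100 kb of both genes and cannot be given to one of them. The strongest, chr9:32612052-32614818, had a signal value of 4.93 and lay nearer to Ets1, with its summit 22.4 kb from its low end. Chr9:32607834-32611587 had 3.49 and chr9:32562160-32562626 had 2.81. The window of Ets1 also takes in 2 body peaks of Fli1, among them the 8.48 peak, so all 5 flanking peaks of Ets1 are shared with Fli1.

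Ets2, a factor activated by growth factor signalling, is the neighbour of Erg in the same way, on chr16:95702407-95721049, with 116 kb and no protein-coding gene between them. It had no peak at an end, in the body or within 100 kb, which was also the case for 23% of all protein-coding genes. The nearest peak lay 117 kb away inside Erg, the weak chr16:95584699-95585340 with a signal value of 2.74. The 2 neighbouring pairs thus differed. Both genes of the Fli1 and Ets1 pair carried rows of body peaks, whereas in the Erg and Ets2 pair these stopped at Erg. Ets2 is also much shorter, at 18.6 kb against 121 kb for Fli1 and 122 kb for Ets1. With protein-coding genes grouped by length, body peaks were found in 11.2% of genes in the class of Ets2. The share was 44.8% in the longest class, which holds Erg, Fli1 and Ets1. The pairs were not compared at matched length. A gene without a called peak can still carry H3K27ac below the level this list detects.

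The start of Ets2 is printed because it is rich in CpG and yet had no peak (RefSeq, GRCm38.p6, plus strand, capitals as above).
Ets2, chr16:95702157-95702456: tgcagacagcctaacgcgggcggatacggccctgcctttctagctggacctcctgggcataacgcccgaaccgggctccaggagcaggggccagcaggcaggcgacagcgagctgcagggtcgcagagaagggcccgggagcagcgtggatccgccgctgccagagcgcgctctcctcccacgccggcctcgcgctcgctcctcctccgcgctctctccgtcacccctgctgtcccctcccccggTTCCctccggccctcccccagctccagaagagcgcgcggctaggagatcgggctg
It held 30 CpG in 300 bases. Of the 3283 listed starts with at least as many CpG, 63.7% had a peak within 1 kb. GGAA was found once.

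**Figure D3:**
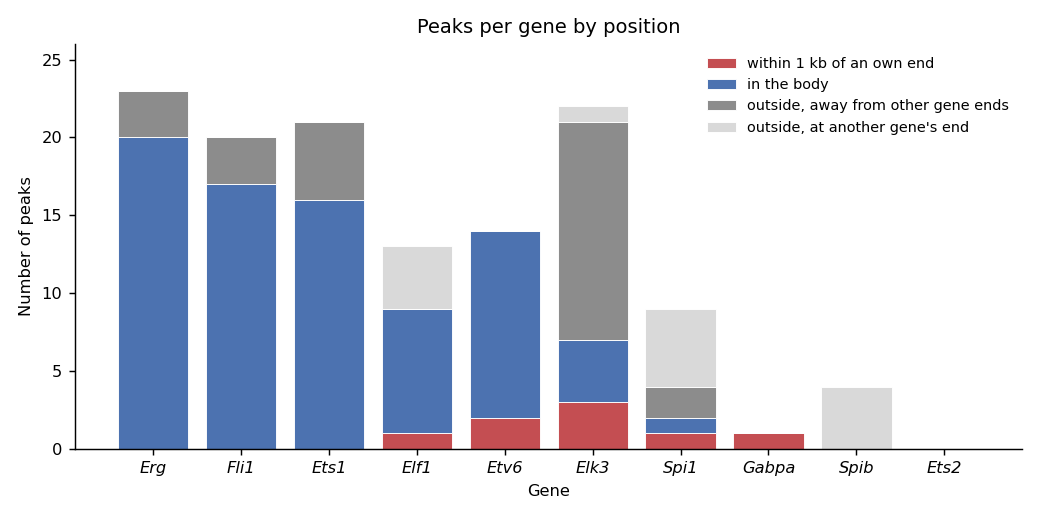
Number of peaks per gene on the y axis for each of the 10 genes on the x axis, split by position as coloured in the key. Erg, Fli1 and Ets1 have 20, 17 and 16 body peaks with no end peak, Gabpa 1 end peak and Ets2 none; the 5 flanking peaks of Ets1 also count for Fli1.

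Elf1, an ETS factor of lymphoid and progenitor cells, lies on chr14:79481174-79582491 and had 1 end peak and 8 body peaks, 6 of the 8 at a q-value of 0.05 or lower. The end peak, chr14:79481094-79485029, had a signal value of 5.84. It also overlaps the end of Wbp4, a splicing-associated gene, so it cannot be given to one of them. The strongest peak of Elf1 was in the body: chr14:79515076-79523718, 8643 bp wide, where the signal value was 8.95 and the −log10 q 35.5. RefSeq lists a second start of Elf1, 34.5 kb inside the gene, and this start lay within that peak. The strongest of the 4 flanking peaks, chr14:79586587-79587751 with 10.3, lay at an end of Sugt1, and all 4 touched the end window of another gene. As in Erg, the strongest peak thus covered an internal start.

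Both starts of Elf1 had a peak, and their sequences are shown for their contrast in base content (RefSeq, GRCm38.p6, plus strand, capitals as above).
Elf1, start at the low end, chr14:79480944-79481243: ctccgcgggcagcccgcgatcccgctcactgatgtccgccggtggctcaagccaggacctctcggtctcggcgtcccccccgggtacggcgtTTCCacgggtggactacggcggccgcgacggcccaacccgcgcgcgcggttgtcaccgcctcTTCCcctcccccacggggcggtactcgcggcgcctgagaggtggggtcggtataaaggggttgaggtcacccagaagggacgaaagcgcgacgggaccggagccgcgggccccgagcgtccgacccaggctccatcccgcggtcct
Elf1, internal start, chr14:79515424-79515723: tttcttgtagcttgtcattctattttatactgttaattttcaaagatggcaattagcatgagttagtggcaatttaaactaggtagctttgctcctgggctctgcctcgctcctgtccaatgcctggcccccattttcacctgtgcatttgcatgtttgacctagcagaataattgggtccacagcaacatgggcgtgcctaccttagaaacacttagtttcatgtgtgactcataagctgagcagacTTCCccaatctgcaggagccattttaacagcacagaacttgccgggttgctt
The start at the end held 43 CpG and a GC content of 73%, the internal one 3 CpG and 44.7%. GGAA was found 2 times at the first and once at the second.

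Etv6, a repressor that adult marrow stem cells need, lies on chr6:134035700-134270158 and at 234 kb is the longest of the 10. Its 2 end peaks lay at the listed start: chr6:134034474-134035917 with a signal value of 6.67 and chr6:134036082-134036605 with 4.01. Both peaks also touch the end window of Gm46977. The 12 body peaks ran from 1.98 to 4.25, and 6 had a q-value of 0.05 or lower. The strongest of them, chr6:134183869-134186385, lies within 1 kb of an end of the non-coding gene Gm52920. Although Etv6 is about as long as Erg, its own peaks covered 5.95% of it. Here the stronger end peak outranked every body peak, whereas in Elf1 the strongest peak was in the body and Erg had no end peak.

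Elk3, which acts with serum response factor and can repress, lies on chr10:93247415-93311159 and had 3 end peaks. The one at its listed start, chr10:93309207-93310613, had a signal value of 3.98 and lay 0.55 to 1.95 kb downstream of it. The 2 at the other end, with 2.90 and 2.45, fall inside the overlapping gene Cdk17, a cyclin-dependent kinase. The 4 body peaks ran from 2.38 to 2.94, and the weakest of them, chr10:93249965-93250666, has its summit 864 bp from an end of Cdk17 and so is not distal. Elk3 had the most flanking peaks of the 10 genes, 15, but 10 of them lie inside Cdk17, among them the strongest, chr10:93164027-93169017 with 6.71. The nearest protein-coding gene end was one of Elk3 for 8 of the 15. The own peaks of Elk3 were thus all below the 4.25 of peaks near gene ends, and the strongest in reach lay in its neighbour.

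Spi1 lies on chr2:91082374-91115759. It had 1 end peak, chr2:91082021-91084371, where the signal value was 4.11 and the −log10 q 6.27, and 1 stronger body peak, chr2:91095826-91098000, with 5.26 and a −log10 q of 10.6. It was the only one of the 5 genes with an end peak at which no end peak touched another protein-coding gene or its end window. The body peak lay 14.7 kb from the low end. Of its 7 flanking peaks, 5 touched the end window of another gene. The strongest was chr2:91202335-91203286 with 3.67, at Acp2. Nearest to Spi1 was the weak chr2:91078070-91078353 with 2.45, 4.02 kb below its low end. Next on that side, chr2:91070755-91071330 with 2.97 and chr2:91069378-91070172 with 3.58 lay at an end of the zinc transporter gene Slc39a13.

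Gabpa encodes the DNA-binding part of GA-binding protein, which drives genes of mitochondria and ribosomes in most cells, and lies on chr16:84834891-84863783. It had 1 peak, chr16:84834313-84836168, where the signal value was 5.57 and the −log10 q 12.1, and no body or flanking peak. The peak reaches from 0.81 kb before to 1.04 kb after the listed start. It is shared with Atp5j, a subunit gene of ATP synthase that it overlaps at its end. An end peak with no body peak was found in 27.2% of all protein-coding genes.

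Its sequence is shown as the one start of the 10 with extended ETS letters (RefSeq, GRCm38.p6, plus strand, capitals as above).
Gabpa, chr16:84834874-84835173: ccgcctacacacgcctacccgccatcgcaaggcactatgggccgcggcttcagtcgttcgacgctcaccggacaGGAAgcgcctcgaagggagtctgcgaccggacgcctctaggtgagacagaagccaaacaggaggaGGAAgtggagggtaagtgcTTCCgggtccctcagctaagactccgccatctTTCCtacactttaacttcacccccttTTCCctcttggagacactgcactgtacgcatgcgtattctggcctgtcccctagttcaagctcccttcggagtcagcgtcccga
GGAA occurred 5 times on the 2 strands together. One of these was part of CCGGAA, which is found on either strand in 18.7% of all listed starts, and one was part of GAGGAAGT, found in 3.13%. Neither of these longer strings occurred at the other 9 listed starts. The string CCGGAAGT was also searched and occurred at none of the 10 starts, that of Gabpa included. It is found in 5.15% of all listed starts and in 10.0% of those with a peak within 1 kb. CCGGAA was present in 32.8% of starts with a peak within 1 kb and in 10.3% of those without. These shares were not compared at matched CpG content, and CCGGAA itself holds a CpG.

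Spib, which acts in B cells and plasmacytoid dendritic cells, lies on chr7:44525995-44532087 and had no own peak. Its listed start had 2 CpG in 300 bases. Its 4 flanking peaks all touched the end window of another gene. The strongest, chr7:44553193-44555062 at Nr1h2, which encodes a sterol-sensing nuclear receptor, had a signal value of 13.9 and was 76th in the list. The others were 5.33 at Emc10, 4.80 at Pold1 and 2.39 at Napsa. The highest flanking value at any of the 10 genes thus lay beside a gene without an own peak.

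**Figure D4:**
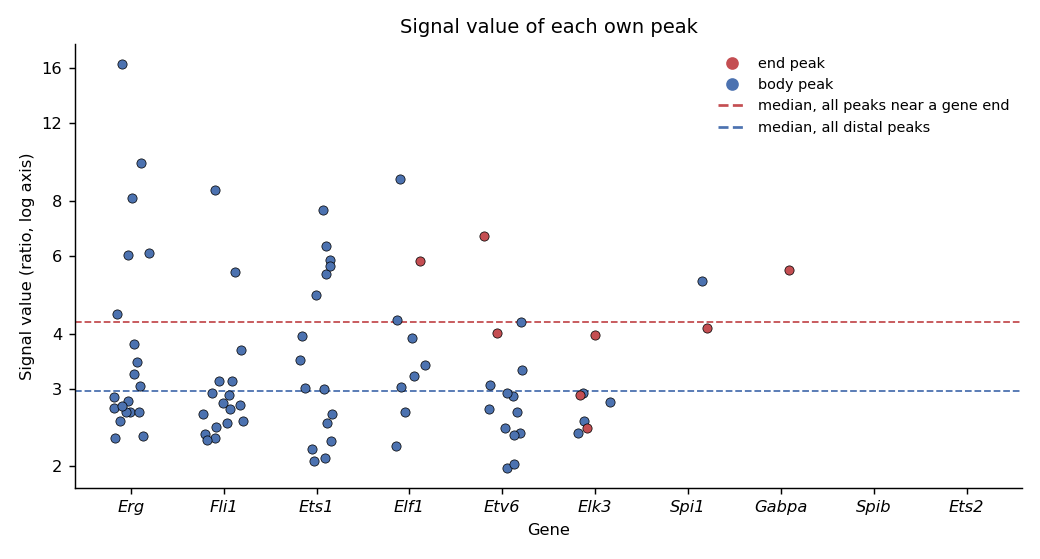
Signal value (a ratio, on a log axis) of each own peak of the 10 genes; each point is 1 peak, red for end and blue for body peaks, and the dashed lines are the medians of all peaks near a gene end, 4.25, and of all distal peaks, 2.97. The body peaks of Erg spread from 2.32 to 16.4, and Spib and Ets2 have no point.

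Over these genes, the 78 body peaks had a median signal value of 2.89, and 26 of them were above the 3.27 of the whole list. Of all distal peaks, 38.2% were. The median of the body peaks was thus near the 2.97 of distal peaks, and 9 were wider than 5 kb. Of the 4 genes with both end and body peaks, Elf1 and Spi1 had the strongest one in the body and Etv6 and Elk3 at an end. The strongest was in the body in 33% of the 1977 protein-coding genes with both. Distal peaks were also joined within 12 kb into 8972 clusters and ranked by signal value times length. The 390 top clusters overlapped 4 of the 10 genes, against 1.45% of all protein-coding genes: Erg at rank 2, Ets1 at rank 12 with 16 peaks over 57.5 kb, Elf1 at rank 47 and Fli1 at rank 207. All 4 are among the 4378 longest genes, of which 4.66% overlapped a top cluster. Fli1 no longer did when peaks were joined within 5 kb or held to −log10 q of at least 5, which left 3 genes. Etv6 held 5 clusters, of which the highest had rank 1216. Distal peaks lie away from gene ends but can cover internal starts, and the top clusters of Erg and Elf1 include the peaks that do.

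The other 16 ETS genes of the mouse had a median of 0 body peaks, against 6 in the 10 genes. Of these, 7 had an end peak, 3 a body peak and 14 a flanking peak, beside 36.2%, 16.6% and 72.2% of all protein-coding genes. Elk4, the relative of Elk3, had the strongest end peak of them with 10.9, followed by Elf2, the relative of Elf1, with 5.51. Etv3 had 4.83, Erf 4.71, Etv1 4.16, Etv4 2.84 and Etv5 2.75. Body peaks were found in Elf2 (4 peaks), Elf4 and Etv5 (1 each). Their median length was 16.9 kb, against 82.5 kb for the 10 genes described, and the lists were not compared at matched length. Of the 16, 8 had no end or body peak: Ehf, Elf3, Elf5, Elk1, Etv2, Fev, Spdef and Spic.

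Of 12 factors that bind with ETS factors or share their targets in blood, 8 had an end peak and 7 a body peak, against 36.2% and 16.6% of all protein-coding genes. Their median length was 22.2 kb, against 17.2 kb for all. The highest end values were 12.2 at Meis1, 10.1 at Runx1 and 10.1 at Ikzf1, then 5.39 at Myb, 4.37 at Cbfb, 3.46 at Irf4, 2.88 at Srf and 2.72 at Lyl1. Runx1 had 19 body peaks and Ikzf1 12, beside their end peaks. Gata2, Tal1 and Lmo2, which bind with Erg and Fli1 in stem cells, had no end or body peak, and Irf8 had 1 body peak, of 4.48.

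**Figure D5:**
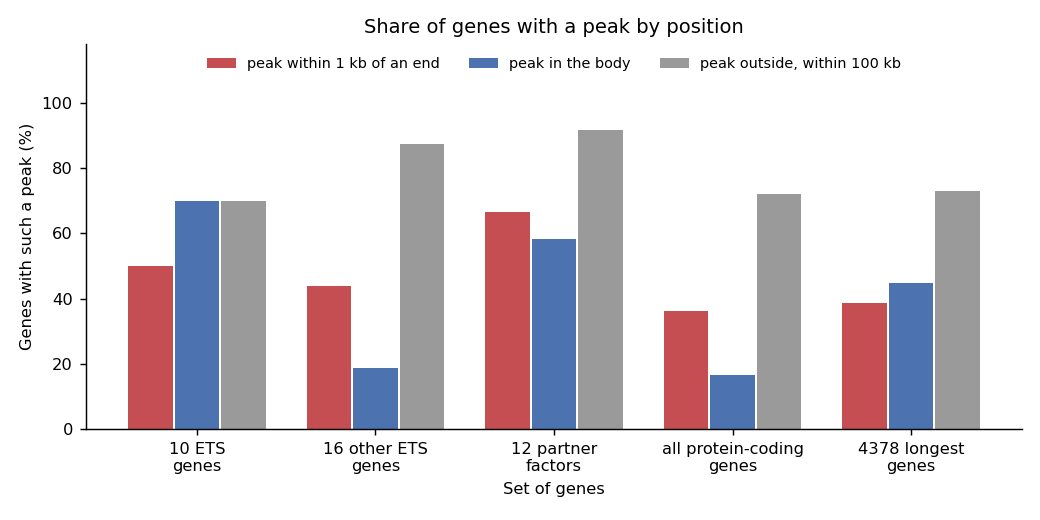
Percentage of genes (y axis) with a peak within 1 kb of an end, in the body, or outside within 100 kb, for 5 sets of genes (x axis). Body peaks were found in 7 of the 10 ETS genes and 3 of the 16 others, against 16.6% of all protein-coding genes and 44.8% of the 4378 longest.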

How the data were processed

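ChIPmentation for H3K27ac was done on 4 libraries with 1 input library, all of the genotype Mll3/4 deleted. Per the submitters' processing notes, BWA and MACS2 were used with build mm10; versions and parameters are not given in the sources used here. The authors deposited 1 headerless list of peaks over input for the 4 libraries together. For each peak it gives positions, a score, a signal value read as the authors' enrichment ratio over background, and the deposited −log10 p-value and −log10 q-value; the score column follows the −log10 p and was not used further.

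Peaks were placed against RefSeq genes of GRCm38.p6 (the same assembly as mm10) on the assembled chromosomes with Python 3.11.15 and pandas 2.3.3. Coordinates are 1-based. Starts and strands came from a RefSeq table of promoter sequences, which has 7 of the 10 genes; it was checked that overlapping entries on opposite strands are reverse complements. Motif letters were searched on both strands, with overlaps allowed. The placement was tested on simulated peaks. No test between samples was possible, so counts are given beside the same counts over all protein-coding genes. Since total reads are not given, no interval was attached to a signal value.

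The genes and lists were chosen with earlier results of these data known. The rule for names was all 10 genes with their strongest peak of each class, and the other ETS genes and partner factors with an end peak; other names were picked with their values in view. Alternatives were stricter lists (by q-value or signal value), other windows and overlaps, merged peaks, and background by length. Counting by any listed start and leaving out flanking peaks at other gene ends were added after the data were seen.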

Additional observations from a re-analysis of the deposited data

How the results depend on the processing

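Of 51 recomputed values for the whole set of genes, 9 moved by more than 1.5 times. Peaks at an end were found for 3 of the 10 genes when the summit had to lie in the window, for 7 with 2.5 kb, for 4 from a signal value of 4 upward and for 5 in both lists held to a stricter q-value. Flanking peaks whose nearest protein-coding gene end was one of the ETS gene were found for 4 of the 10 genes. The share over all protein-coding genes was 11%, not matched for gene length or for the distance between genes. The 78 body peaks became 46 when peaks within 1 kb were merged, and 20 with −log10 q of at least 5, where the 41 flanking peaks became 11. In that list, 24.0% of all protein-coding genes had an end peak and 7.34% a body peak. By length, body peaks were found in 4.68% of genes in the second-shortest length class and 44.8% of those in the longest. For single genes, 24 of 90 peak counts moved by more than 1.5 times: with −log10 q of at least 5, the body peaks were 7 in Erg, 7 in Ets1, 2 in Fli1, 2 in Elf1, 1 in Etv6 and 0 in Elk3. Merging left 10 in Erg, 11 in Fli1, 6 in Ets1 and 5 in Elf1. The top clusters overlapped Erg, Ets1 and Elf1 but not Fli1 when joined within 5 kb or with −log10 q of at least 5.

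Single libraries could not be left out, because the list gives them together. No paired analysis was possible because no column holds a single replicate. The unknown depth limits what the absence of a peak at Ets2 and Spib can show.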

Other observations

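The summits of the peaks at the starts of Erg and Elf1 lay far into the transcribed part. The summit lay 1.97 kb downstream of the third start of Erg, 1.67 kb downstream of the internal Elf1 start and 2.34 kb downstream of the outer Elf1 start. Over the 7957 listed starts with a peak within 1 kb, the median was 0.28 kb downstream, and 1.94% of the strongest summits lay over 1.5 kb downstream. At Elk3 the value was 0.93 kb and at Gabpa 0.12 kb, while at Etv6 the summit lay 0.25 kb before the start. The peaks at these Erg and Elf1 starts were 10740, 8643 and 3936 bp wide, and the part of width in the position of the summit was not tested.

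The internal starts of Erg and Elf1 that lay inside a peak were also poor in CpG, with 4 and 3 in 300 bases. Of the 1280 internal starts with a peak within 1 kb, whose median was 19 CpG, 141 (11.02%) had at most 4, against 39.4% of the 2770 internal starts without one. The list does not show whether a transcript begins at these starts in the sorted cells.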
